A study of Mus musculus with 4 samples.

Results

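Cycling basal cells were the basal cells of mouse mammary organoids that carried transcripts of late cell division, and 713 of the 33268 cells of 4 single-cell libraries met their definition. A cell entered when it had at least 1000 detected genes, under 5% of its unique molecular identifiers (UMIs, one per captured transcript) on mitochondrial genes and a top antibody tag at least 3 times the second. It also needed under 300 CPM of Areg (CPM being a gene's UMIs per 1000000 gene UMIs of the cell), at least 500 CPM of Krt14 and at least 200 CPM of Top2a, Cenpf, Ccnb2 and Birc5 together. Of 23079 cells within the limits on genes, mitochondrial UMIs and tags, 3.09% were cycling basal cells, and 1828 basal cells with under 50 CPM of the 4 genes served as non-cycling cells of the same libraries. A further 468 basal cells lay between 50 and 200 CPM and entered neither group.

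Organoids were grown in Matrigel from single mammary cells of virgin females aged 9 to 11 months, either wild-type (WT) or heterozygous for a germline truncating Brca2 allele (Brca2mut/WT), so that every cell of the latter carried it. The treated arms were exposed to hydroxyurea (HU), which depletes deoxyribonucleotides and stalls replication forks, in 1 pulse or in repeated pulses depending on passage, each followed by recovery, and the control arms were cultured without it. Frozen organoids were thawed, cultured briefly, dissociated with TrypLE and captured as 1 library for each of WT control, WT HU, Brca2mut/WT control and Brca2mut/WT HU. Organoids of an early and a late passage from several mice went into sequencing, and the sample titles name 2 replicates for each library. The passage of a library or of a tag and the mouse behind each antibody tag were not given in the sources used here, so that libraries and tags may mix passages and mice, the cells of a tag are called a pool and cell differences cannot be traced to a mouse. These libraries held 302135155, 258821284, 243430259 and 258118001 gene UMIs, in the same order, in 9358, 8158, 8113 and 7639 cells.

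Cycling basal cells numbered 190 in the WT control, 332 in WT HU, 78 in the Brca2mut/WT control and 113 in Brca2mut/WT HU. They were deeply sampled, with a median of 45403 UMIs and 6442 genes, against 26764 UMIs and 5006.5 genes in non-cycling basal cells. The submitters also set an upper limit on genes per cell, which was not applied here. Of the 713 cells, 434 had over 6000 genes, and 467 of the 1828 non-cycling cells did. The mitochondrial share was 2.74% of UMIs in the median cycling and 2.73% in the median non-cycling cell. Across libraries, 129 barcodes occurred in 2 libraries each, and 7 of the cells carrying them were cycling basal cells.

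Basal cells form the outer layer of the mammary epithelium, rest on the basement membrane and make keratins 5 and 14. Mature basal cells contract around the luminal cells to eject milk, and in culture basal cells can divide or take on a keratinising, epidermis-like programme. A dividing cell copies its DNA in S phase with genes of nucleotide supply, replication and repair, and then raises a later set of genes for chromosome condensation, spindle assembly and cytokinesis. This later set is switched by a complex that reads the cell cycle genes homology region (CHR) near the start of transcription, often next to CCAAT boxes bound by the factor NF-Y.

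The 4 genes that chose the cells belong to the later set. Top2a untangles sister DNA molecules, Cenpf sits at kinetochores, Ccnb2 is a cyclin of the mitotic kinase Cdk1, and Birc5 (survivin) is a subunit of the chromosomal passenger complex. Their promoter stretches, from 110 bases before to 12 bases after the annotated start (RefSeq, GRCm38.p6), are shown with those of Cdk1 and of the basal keratin gene Krt5, to set stretches with the motifs through which the later set is known to be read beside stretches without them. Capitals mark the CHR letters TTTGAA or TTTAAA and the CCAAT box, searched on both strands, so that TTCAAA is TTTGAA and ATTGG is CCAAT read on the other strand.
Ccnb2 (chr9:70421543-70421664, minus strand): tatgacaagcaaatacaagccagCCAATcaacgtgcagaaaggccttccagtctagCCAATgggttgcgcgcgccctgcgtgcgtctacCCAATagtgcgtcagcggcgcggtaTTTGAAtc
Top2a (chr11:99024178-99024299, minus strand): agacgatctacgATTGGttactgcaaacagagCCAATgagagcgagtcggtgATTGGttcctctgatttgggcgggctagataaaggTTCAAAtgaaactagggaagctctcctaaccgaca
Cenpf (chr1:189688075-189688196, minus strand): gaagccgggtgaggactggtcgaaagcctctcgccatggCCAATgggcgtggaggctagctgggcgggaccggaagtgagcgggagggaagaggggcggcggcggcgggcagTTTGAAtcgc
Birc5 (chr11:117849127-117849248, plus strand): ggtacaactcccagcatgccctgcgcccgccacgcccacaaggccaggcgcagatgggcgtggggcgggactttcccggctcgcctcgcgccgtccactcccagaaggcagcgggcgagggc
Cdk1 (chr10:69352901-69353022, minus strand): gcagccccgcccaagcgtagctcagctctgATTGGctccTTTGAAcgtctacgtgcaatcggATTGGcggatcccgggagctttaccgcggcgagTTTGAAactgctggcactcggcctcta
Krt5 (chr15:101712894-101713015, minus strand): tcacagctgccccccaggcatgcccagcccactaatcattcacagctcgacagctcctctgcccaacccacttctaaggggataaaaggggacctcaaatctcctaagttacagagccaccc

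The Ccnb2 stretch held 3 CCAAT boxes, and its TTTGAA, like that of Cenpf, lay just after the start. Top2a held 3 CCAAT boxes and a TTTGAA on the other strand, and Cdk1 held 2 CCAAT boxes on the other strand, at 80 and 48 bases before the start, and a TTTGAA at 71 and at 15 bases. Birc5 had neither motif in the stretch, and its only CHR letters in the wider window, TTTAAA, began 220 bases before the start. Krt5 had neither motif in the wider window, which ran from 250 bases before to 50 bases after the start. In that window, CHR letters occurred in 37 of the 46 G2/M genes with a RefSeq entry (80.4%), in 19.1% of the 10160 genes tested below that had an entry and in 27.9% of the windows of all 27025 gene symbols. CHR letters together with a CCAAT box occurred in 63.0% of the G2/M windows, in 7.80% of those of the genes tested and in 10.8% of all windows. An E2F motif (TTTGGCGC or TTTCCCGC) occurred in 4.35% of the G2/M windows, in 3.07% of those of the genes tested and in 1.62% of all, and in 34.5% of the S phase windows. Of the 41 S phase genes 29 had an entry, so that this share describes those genes only. Where a symbol had several annotated starts, the window at the lowest genomic position was taken, and other starts were not searched. That is the most upstream start on the plus strand and the most downstream on the minus strand. These matches describe the letters of the windows only, and the tables held no entry for Wnt10a or Il24.

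The summed level of the 4 genes had a median of 955 CPM in cycling basal cells (quartiles 482 and 1581, highest 4859), which was 42 UMIs in the median cell. Just inside the threshold lay cells at 201, 203 and 205 CPM, and just outside cells at 193, 195 and 199 CPM. Between 150 and 200 CPM there were 58 basal cells, and between 200 and 250 CPM there were 47. On the Krt14 side the nearest cell inside had 504 CPM and the nearest outside 499 CPM, and 55 cycling cells (7.71%) had under 1000 CPM. The distribution by library had a low mode and a high mode around a minimum near the threshold.

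**Figure D1:**
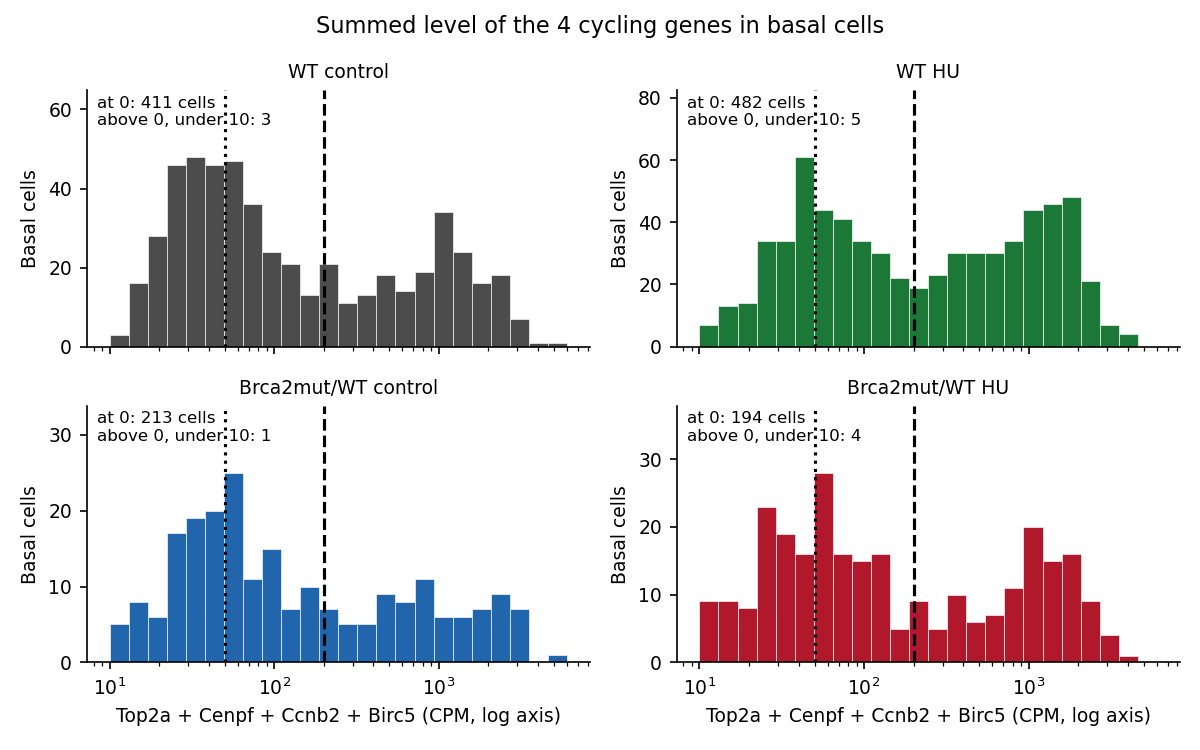
Number of basal cells by the summed level of Top2a, Cenpf, Ccnb2 and Birc5 (CPM, log axis) in each of the 4 libraries; cells at 0 and above 0 but under 10 CPM are counted in the corner. The dashed line is the 200 CPM limit of cycling cells and the dotted line the 50 CPM limit of non-cycling cells, and each library has a second group of cells to the right of the dashed line.

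As the choice requires, the 4 genes were low in non-cycling cells and high in cycling cells. In cycling cells Top2a (chromosome 11, 98992943 to 99024189, minus strand) had 348 CPM in the WT control, 362 in WT HU, 354 in the Brca2mut/WT control and 355 in Brca2mut/WT HU, against 4.99, 5.67, 6.5 and 6.11 in non-cycling cells. Birc5 (chromosome 11, 117849251 to 117855743, plus strand) had 324, 321, 345 and 321 CPM in cycling cells, against 3.70, 3.08, 3.10 and 2.61. These gene positions are from GENCODE. This start of Birc5 lies beyond the end of the stretch shown above, which was taken around another start, annotated in RefSeq. Cenpf had 293, 249, 330.4 and 281 CPM, and Ccnb2 122, 116, 151 and 139.7 CPM. Values from here on are given for the WT control, WT HU, the Brca2mut/WT control and Brca2mut/WT HU, in this order, as UMIs summed over the cells of a library and scaled to CPM. Values of the 4 genes, Krt14 and Areg, and of the cell cycle gene lists, are descriptions without a test in the comparison of cycling with non-cycling basal cells.

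Cells of both groups carried basal markers. Summed over 15 basal marker genes, cycling cells had 5589, 4689, 5373 and 5544 CPM and non-cycling cells 5340, 4557, 4494 and 4475 CPM, while luminal cells had 448 CPM when cycling and 503 CPM when not. Krt5 gave the highest UMI count of the list in both basal groups. Krt14 was high in both groups, at 8291, 7762, 10043 and 7557 CPM in cycling and 10903, 7633, 7114 and 6108 CPM in non-cycling cells. Stromal markers (9 genes) summed to 35.7 CPM in cycling cells, mostly Fbln1, with Lum, Col3a1 and Dpt at 0, and immune and endothelial markers (9 genes) to 2.69 CPM, with Cd3e, C1qa and Cdh5 at 0.

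Luminal transcripts were also present in cycling basal cells. The luminal keratins Krt8 and Krt18 together reached at least 300 CPM in 608 of the 713 cycling and in 1555 of the 1828 non-cycling basal cells. The 17 markers of hormone receptor negative (HR-) luminal cells summed to 13814, 10475, 13421 and 11346 CPM in cycling cells, to 15593, 15666, 18025 and 15039 CPM in non-cycling cells, and to 56786 CPM in cycling luminal cells over the 4 libraries. Lcn2 gave their highest UMI count in every group. After each cell was thinned to 5000 UMIs, 145 of 701 cycling basal cells (20.7%) and 780 of 1803 non-cycling basal cells (43.3%) had 50 or more UMIs of these markers, against 98.6% of cycling and 99.4% of non-cycling luminal cells. Across the 701 cells the basal and HR- luminal sums were inversely related (Spearman's rho -0.53, from -0.67 to -0.46 within libraries), a description across cells that share a fixed total. The part of free RNA from luminal cells, of cells captured together and of mixed identity in these values was not tested.

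The share of basal cells that were cycling was 20.2% in the WT control (95% exact Clopper-Pearson interval 17.7 to 22.9, 939 cells), 28.7% in WT HU (26.1 to 31.4, 1157 cells), 17.8% in the Brca2mut/WT control (14.3 to 21.7, 438 cells) and 23.8% in Brca2mut/WT HU (20.03 to 27.9, 475 cells). These intervals cover counting error only, and each condition was a single library, so that no p-value is given between them. The intervals of WT HU and WT control were separate, and those of the Brca2mut/WT libraries overlapped. Among cells with at most 6000 genes the shares were 11.8%, 18.6%, 10.5% and 10.5%. Luminal cells of the same libraries were cycling in 12.8%, 12.1%, 15.1% and 15.1% of cases. As a share of all cells within the limits, cycling basal cells made up 2.83%, 5.62%, 1.44% and 2.24%.

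Tag pools of 1 library differed as much as libraries did. In the WT control the cycling share of basal cells was 6.33%, 17.1%, 12.8% and 26.5% in pools 1 to 4, and pool 4 held 77.9% of its cycling basal cells. WT HU had 20.1%, 32.9%, 19.3% and 28.9%, with 61.1% of the cells in pool 2. The Brca2mut/WT control had 14.5%, 44.4% (4 of 9 cells), 11.6% and 22.5%, and Brca2mut/WT HU 20.6%, 25% (5 of 20 cells), 13.6% and 35.4%, with 57.7% and 49.6% of the cells in pool 4. Without pool 4 the WT control share was 11%, without pool 2 the WT HU share was 23.9%, and without pool 4 the Brca2mut/WT HU share was 18.0%. In every library pools 2 and 4 had higher cycling shares than pools 1 and 3, among basal and among luminal cells. Each WT HU pool of basal cells was above the WT control pool of the same number, with overlapping intervals for pools 3 and 4. In Brca2mut/WT pools 1, 3 and 4 were above the control pool of the same number and pool 2 was not, with overlapping intervals throughout. Pools of the same number are not known to match across libraries, and pools of 1 library are not replicates of a condition. What the pools have to do with the difference between libraries cannot be told apart from treatment, since no key to the tags was given.

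**Figure D2:**
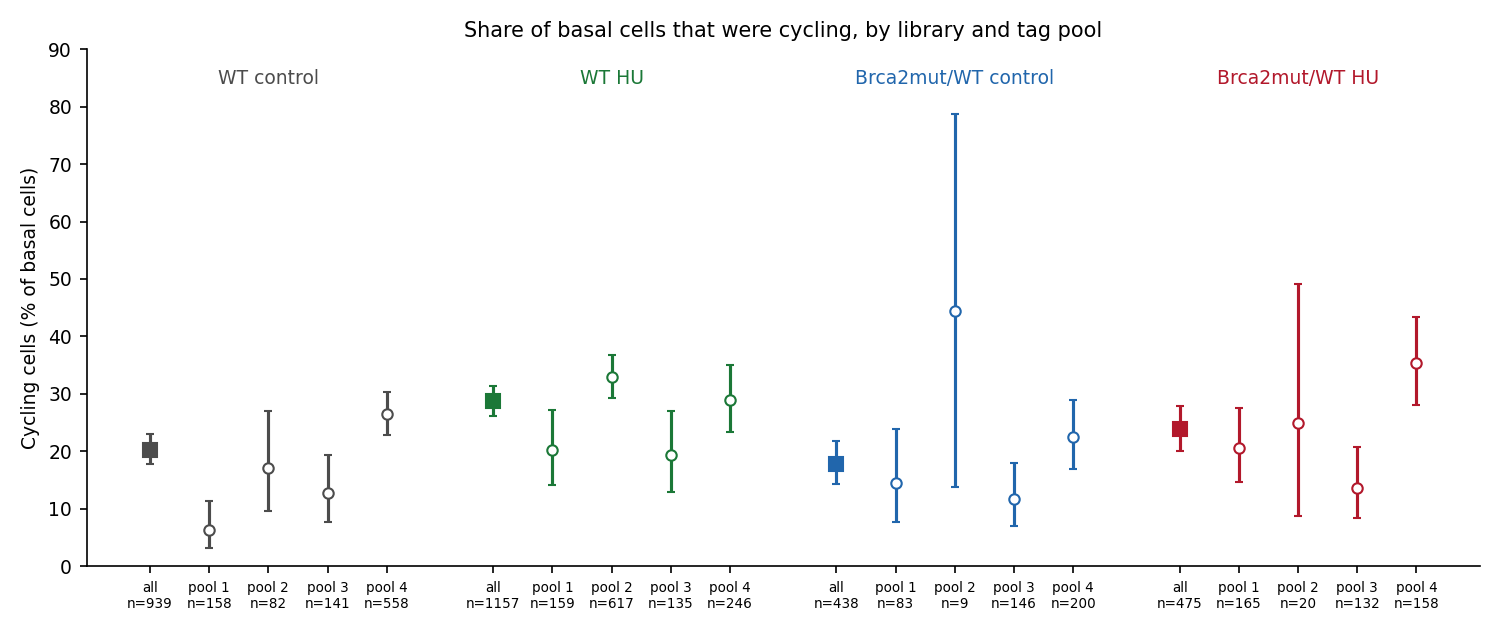
Cycling cells as percent of basal cells for each library (filled squares) and each of its 4 tag pools (open circles), with 95% exact Clopper-Pearson intervals and the number of basal cells below. Pool shares within the WT control run from 6.33% to 26.5%, and pool 2 of the Brca2mut/WT control rests on 9 cells.

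Other genes of S phase, of G2 and mitosis and of chromatin followed the 4 genes. All 41 S phase genes measured were higher in cycling cells at a median log2 fold change of 2.38, and all 53 G2/M genes at a median of 4.89, beside -0.03 over all 13173 genes tested, of which 25.2% were higher. Mki67, the proliferation antigen Ki-67, had 231, 238, 243 and 244 CPM in cycling cells and 3.31, 4.2, 2.48 and 2.34 in non-cycling cells. Pcna, the sliding clamp of DNA polymerases, had 147, 187, 132 and 192 CPM against 45.7, 55.0, 48.5 and 52.0. Of 15 histone genes 13 were higher (86.7%, beside the 25.2%), among them the linker histone gene Hist1h1b (9.12 to 490.1 CPM over the 4 libraries) and the variant histone gene H2afz (457 to 1989 CPM), while Hist1h2bc was lower (97.2 to 68.5 CPM).

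G2/M transcripts outnumbered S phase transcripts in most cycling basal cells, as they did in the other groups, over the 53 G2/M and 41 S phase genes measured. At 5000 UMIs per cell the median cycling cell had 10 UMIs of the S phase list and 35 of the G2/M list, against 2 and 6 in non-cycling basal and 8 and 32 in cycling luminal cells. The S phase sum exceeded the G2/M sum in 16 of 187 cells of the WT control, 42 of 330 of WT HU, 5 of 75 of the Brca2mut/WT control and 10 of 109 of Brca2mut/WT HU, or 10.4% of 701 (95% exact Clopper-Pearson interval 8.25 to 12.9). Both sums reached 2 UMIs in 674 of the 701 cells. Across cells they were unrelated in rank (Spearman's rho -0.02, from -0.13 to 0.09 within libraries). Basal cells early in S phase, with few transcripts of the 4 genes, fall outside the rule.

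Cycling and non-cycling basal cells were then compared over all genes, with the counts of each library and state summed and the library kept as a block (edgeR's quasi-likelihood test, Benjamini-Hochberg adjusted p under 0.05). Of 13173 genes tested, 3317 were higher (25.2%) and 3236 lower (24.6%) in cycling cells, of which 684 and 513 differed by over 2-fold. Outside the cell cycle lists and the 4 chosen genes, 580 genes were over 2-fold higher. With every cell thinned to 5000 UMIs, which equalises UMIs per cell but not the depth of the sums, 1872 were higher and 1645 lower, and among the fewer cells with under 300 CPM of Krt8 and Krt18 1504 and 1342. Gene lists below are read against these background shares. Adjusted p-values printed with a gene are from this test, and log2 ratios of single libraries are on the scale of CPM plus 1, given as mean ± SD (n = 4 libraries).

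The largest rises outside those lists were again mitotic genes. Knl1 and Sgo1 act at kinetochores and centromeres, Aspm at spindle poles, Ccna2 is cyclin A2, Kif4 and Kif15 are motor proteins of the mitotic chromosome and spindle, Cep55 acts in the final cut between daughter cells, Esco2 joins sister chromatids and Ska1 holds microtubules at kinetochores. Knl1 rose from 0.585 to 61.7 CPM (log2 fold change 6.74), the largest change named, and Ska1 from 0.699 to 34.3 CPM (5.61), the smallest. Ccna2 had 92.5, 103, 99.6 and 108 CPM against 1.78, 1.27, 1.03 and 0.989. Aspm, Kif4, Kif15, Cep55, Depdc1a, Sgo1 and Esco2 rose by 5.72 to 6.52 on the log2 scale. Since the cells were chosen by genes of the same process, these rises describe the choice and are given without p-values.

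Genes of homologous recombination and the Fanconi pathway, which repair broken and stalled forks, were higher in cycling cells in 27 of 33 tested (81.8%), and none was lower (median log2 fold change 1.86). Brca1 rose from 1.33 to 18.8 CPM (log2 ratio 3.04 ± 0.35, adjusted p 1.0e-07). Rad50, a subunit of the complex that senses DNA ends, rose less, from 60.9 to 90.4 CPM (log2 ratio 0.56 ± 0.16, adjusted p 6.3e-05), and Rad52, at 5.69 and 4.13 CPM, did not pass (adjusted p 0.052). At 5000 UMIs per cell 14 of 23 genes of the list were higher.

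Brca2, a mediator of homologous recombination, had 16.3 CPM (95% exact Poisson interval 13.9 to 18.9) in cycling cells of the WT control, 22.4 (20.2 to 24.8) in WT HU, 8.64 (6.17 to 11.8) in the Brca2mut/WT control and 14.8 (12.2 to 17.8) in Brca2mut/WT HU. It was higher in cycling than in non-cycling cells of every library (3.41, 4.50, 3.82 and 3.95 CPM in non-cycling cells, log2 ratio 1.68 ± 0.49, adjusted p 5.6e-06). Each heterozygous library was below its WT counterpart in cycling cells, with separate intervals. Each HU library was above the control of its genotype, also with separate intervals, and the intervals of Brca2mut/WT HU and the WT control overlapped. Brca2 lay under the 50 CPM set below for naming genes between conditions, and the intervals cover counting error only. An effect of genotype or of HU on Brca2 was not tested, and the counts do not tell the alleles apart. In non-cycling cells the 4 libraries lay between 3.41 and 4.50 CPM.

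Nucleotide supply and the replication checkpoint, both engaged by HU, rose with the cell cycle genes. Of 16 dNTP pool genes 13 were higher and 1 lower, with a median log2 fold change of 1.12. Rrm2, the small subunit of ribonucleotide reductase and the target of HU, had 140.3, 185, 154 and 175 CPM in cycling and 9.53, 14.3, 10.0 and 11.4 CPM in non-cycling cells; it stands in the S phase list and is given without a test. Samhd1, which degrades dNTPs and whose call was lost in 7 of 22 alternatives, fell from 34.3 to 29.0 CPM (log2 ratio -0.28 ± 0.20, adjusted p 0.029), and Rrm2b, the p53-induced small subunit, was at 14.4 and 12.7 CPM (adjusted p 0.27). Of 22 checkpoint genes 20 were higher and none was lower (median 1.22), with the kinase gene Chek1 at 2.00 and 18.4 CPM (log2 ratio 2.66 ± 0.15, adjusted p 2.5e-08) and Rad17 at 21.1 and 22.0 CPM (adjusted p 0.73).

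Regulators of the G1 decision went both ways. Of 25 Cdk inhibitors and G1 genes 14 were higher (56.0%, beside 25.2% of all genes tested) and 6 lower (24%, beside 24.6%). The difference between these shares was not tested. The 14 include E2f8 and Ccne2, which also stand in the S phase list, so that part of the count describes the choice of cells. Cdk4 rose in every library by nearly the same amount (log2 ratio 0.48 ± 0.02, adjusted p 1.5e-05), and Ccnd1, cyclin D1, was at 984 CPM in non-cycling and 1009.9 CPM in cycling cells (adjusted p 0.30). Cdkn2b (p15) fell from 90.5 to 68.1 CPM (log2 ratio -0.38 ± 0.13, adjusted p 0.0013), Cdkn2a from 242 to 204 CPM (adjusted p 0.017) and Ccnd2, cyclin D2, from 511 to 382 CPM (adjusted p 0.0048). Among 21 p53 targets 5 were higher (23.8%) and 7 lower (33.3%), which is near the shares over all genes tested. Cdkn1a (p21) fell slightly (log2 ratio -0.18 ± 0.14, adjusted p 0.035), Btg2, an antiproliferative gene that is also in the immediate early list, fell from 75.7 to 45.1 CPM (log2 ratio -0.72 ± 0.12, adjusted p 8.5e-06), and of the 5 that rose, Ckap2 and Gtse1 are also genes of mitosis. The calls of Cdkn2a, Ccnd2, Cdkn1a and Cdkn2b were lost among cells with at most 6000 genes or at 5000 UMIs per cell.

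The markers Krt5, Wnt10a and Il24, given for these cells from an earlier look at the same data, were described without a test. Krt5 had 2552, 1849, 1658 and 1448 CPM in non-cycling and 3059, 2458, 2918 and 2575 CPM in cycling cells, higher in every library (log2 ratio 0.58 ± 0.29) and in all 14 pools with at least 10 cells that could be compared. Wnt10a, a Wnt ligand of basal cells, had 61.8, 46.5, 53.5 and 59.4 CPM and 101, 87.8, 105 and 119 CPM (log2 ratio 0.89 ± 0.13), without overlap of the groups and higher in 13 of 14 pools. At 5000 UMIs per cell it had a UMI in 33.1% of cycling and 19.2% of non-cycling basal cells, and in 0.381% of cycling luminal cells. Il24, a cytokine of the interleukin 10 family, was less even, at 17.4, 12.7, 15.0 and 12 CPM in non-cycling and 17.9, 18.7, 62.7 and 32.3 CPM in cycling cells. The WT control was nearly the same in both states, and the Brca2mut/WT control was highest, with 189 CPM in the 12 cycling cells of its pool 1.

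The basal marker list held no rise other than that of Krt5 (1 of 15 higher, 6 lower, median log2 fold change -0.15). Sparc, a matrix protein, fell from 548, 516, 567 and 691 CPM to 413, 319.7, 322 and 321 CPM (log2 ratio -0.75 ± 0.29, adjusted p 7.0e-05). Trp63, the master regulator of stratified epithelium, fell from 51.4 to 41.8 CPM (log2 ratio -0.28 ± 0.10, adjusted p 0.0051), and Itga6 (CD49f) was at 230.0 and 233 CPM (adjusted p 0.35). In the cells with under 300 CPM of Krt8 and Krt18 the list had 2 genes higher and none lower, and the log2 fold change of Trp63 was 0.054 (adjusted p 0.79), and the call of Sparc was lost. That of Trp63 was also lost among cells with at most 6000 genes, at 5000 UMIs per cell and without the block. Ptn, pleiotrophin, a heparin-binding growth factor outside the list, rose without overlap of the groups, with 59.7, 92.6, 74.5 and 76.2 CPM in non-cycling and 175, 178, 163 and 158 CPM in cycling cells (log2 ratio 1.16 ± 0.26, adjusted p 1.5e-06). It was higher in cycling cells of 13 of 14 pools and had a UMI in 55.9% of cycling against 23.2% of non-cycling basal cells at equal depth.

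**Figure D3:**
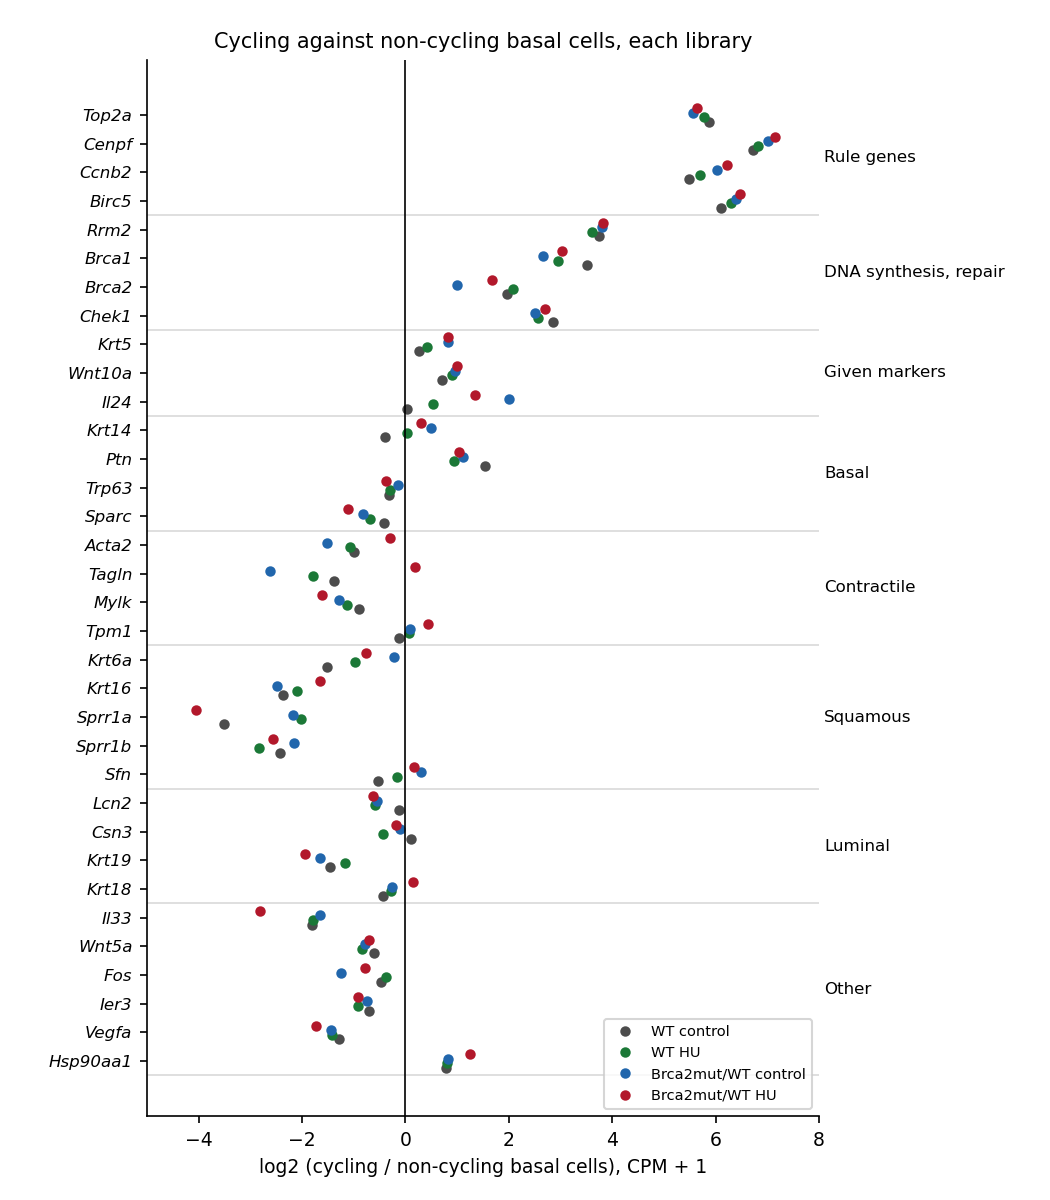
Log2 ratio of cycling to non-cycling basal cells (x axis, CPM plus 1) for genes grouped by role (rows), with 1 point per library. Genes of the rule and of DNA synthesis lie right of 0 in all 4 libraries, squamous genes other than Sfn lie left of 0, and Tagln lies left in 3 libraries and right in Brca2mut/WT HU.

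Genes of squamous, keratinising differentiation were lower in cycling cells, in 11 of 14 tested (78.6%), and none was higher (median log2 fold change -1.38). Krt16, a keratin of activated epidermis, fell from 388, 718, 478 and 397 CPM to 74.1, 166, 84.5 and 126 CPM, without overlap (log2 ratio -2.15 ± 0.37, adjusted p 3.8e-07). Sprr1a, a precursor of the cornified envelope, fell from 387, 229.9, 176 and 83.9 CPM to 33.1, 56.0, 38.0 and 4.15 CPM (log2 ratio -2.94 ± 0.99, adjusted p 2.5e-05). Krt6a fell from 1119 to 547 CPM (adjusted p 0.0016), and Sfn, 14-3-3 sigma, at 774 and 707 CPM, did not pass (adjusted p 0.75).

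The largest falls among all genes with the same sign in every library were of the same kind. They were Calm4 (25.1 to 2.53 CPM, -3.27), an epidermal calmodulin, Spink5 (35.5 to 3.93 CPM, -3.12), an inhibitor of skin proteases, Sprr1a, Krt6b (222 to 40.6 CPM, -2.65), Sprr1b (116 to 19.0 CPM, -2.59), Krt16 and Cst6 (72.4 to 18.4 CPM, -2.07), a cystatin of cornifying skin, as log2 fold changes with adjusted p of at most 2.5e-05 by edgeR. Outside keratinisation they were Abca1, a cholesterol exporter (33.5 to 7.55 CPM, -2.13), the alarmin Il33 (73.8, 64.0, 102 and 58.0 CPM to 20.4, 17.8, 31.8 and 7.39 CPM, -1.98) and AW112010 (46.1 to 11.8 CPM, -1.95), with adjusted p of at most 1.3e-04. Abca1 was lower in the cycling cells of all 14 pools, and Sprr1a, Krt16 and Il33 in 11 of 14. Spink5 was lower in 10 pools and higher in 4.

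Cells with the most squamous UMIs were fewer among cycling cells, and the shares at a lower bound ran the other way. At 5 or more UMIs of the list, out of 5000 per cell, the shares were 50.8%, 40%, 46.7% and 48.6% of cycling against 48.6%, 38.1%, 36.2% and 32.4% of non-cycling cells. At 5000 UMIs per cell the median was 4 UMIs of the squamous list in cycling and 3 in non-cycling cells, whereas the means were 7.63 and 12.2. Cells with 50 or more UMIs of the list numbered 8 of 701 cycling (1.14%) and 89 of 1803 non-cycling cells (4.94%), and the top 5% of cells held 33.4% and 49.6% of the list's UMIs. Basal cells with 50 or more made up 0.535%, 1.21%, 1.33% and 1.83% of cycling and 7.29%, 3.88%, 3.83% and 3.56% of non-cycling cells in the 4 libraries, so that the gap was widest in the WT control. At 20 or more UMIs the shares were 4.28%, 9.39%, 13.3% and 11% of cycling against 20.2%, 10.2%, 10.8% and 9.25% of non-cycling cells, lower among cycling cells in the WT libraries and higher in the Brca2mut/WT libraries. Luminal cells had a median of 0. In cells with under 300 CPM of Krt8 and Krt18, 13 of 13 squamous genes were lower.

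**Figure D4:**
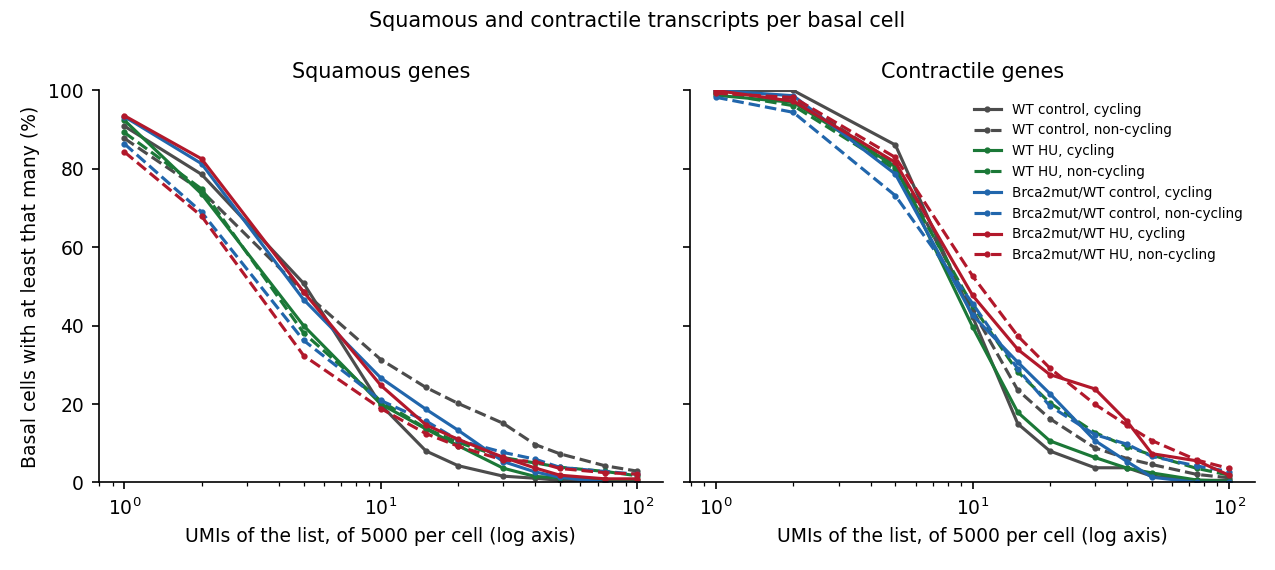
Percent of basal cells (y axis) with at least the given number of UMIs of the squamous list (left) and the contractile list (right) out of 5000 per cell (x axis, log), for cycling (solid) and non-cycling (dashed) cells of each library. At 5 or more squamous UMIs the cycling curve lies above the non-cycling one in all 4 libraries, and over the 4 libraries 1.14% of cycling and 4.94% of non-cycling cells reach 50 squamous UMIs.

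Contractile genes of smooth muscle type fell in 10 of 14 tested (71.4%), none was higher, and the median log2 fold change was -0.92. Acta2, smooth muscle actin, had 427, 652, 799 and 1080.1 CPM in non-cycling and 214, 309.6, 278 and 877 CPM in cycling cells (log2 ratio -0.97 ± 0.50, adjusted p 5.2e-04). Myl9, a myosin light chain, fell from 128 to 66.8 CPM (log2 ratio -0.93 ± 0.17, adjusted p 3.8e-06), and Mylk, the kinase of that chain, from 21.2 to 9.15 CPM (log2 ratio -1.23 ± 0.30, adjusted p 9.2e-06). Tagln, transgelin, was lower in 3 libraries and higher in Brca2mut/WT HU, at 224, 265, 358 and 526 CPM in non-cycling and 85.8, 76.4, 57.5 and 598 CPM in cycling cells (log2 ratio -1.40 ± 1.18, adjusted p 0.0088). Tpm1, an actin-binding tropomyosin of many cell types, was at 553 and 588 CPM (adjusted p 0.19).

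As with squamous genes, the medians differed little (8 UMIs of the contractile list in cycling and 9 in non-cycling cells at 5000 UMIs) and the tails more. Of 701 cycling cells 20 (2.85%) had 50 or more UMIs, and of 1803 non-cycling cells 121 (6.71%). By library these were 1.60%, 2.42%, 1.33% and 7.34% of cycling against 4.58%, 6.98%, 6.62% and 10.7% of non-cycling cells. At 20 or more UMIs the shares were 8.02%, 10.6%, 22.7% and 27.5% against 16.3%, 20.3%, 19.5% and 29.2%, higher among cycling cells in the Brca2mut/WT control, and at 30 or more UMIs they were higher in Brca2mut/WT HU (23.9% against 19.9%). The sums per library were 2218, 2197, 2627 and 4122 CPM in cycling against 3002, 3147, 3750 and 4486 CPM in non-cycling cells. Across cycling cells neither list was related in rank to the G2/M sum (Spearman's rho -0.07 for contractile and -0.03 for squamous genes). Without the library as a block 4 contractile genes passed and Acta2 and Tagln did not, and 3 of 11 passed among cells with under 300 CPM of Krt8 and Krt18.

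Genes of the basement membrane and matrix, through which basal cells hold to their support, fell in 15 of 26 tested, and none was higher (median log2 fold change -0.41). Thbs1, thrombospondin 1, fell from 379.8, 355, 391 and 406 to 259, 239, 158 and 221 CPM (log2 ratio -0.82 ± 0.35, adjusted p 1.7e-04). Postn, periostin, fell from 99.6 to 27.5 CPM (adjusted p 3.5e-04), and Lamb3, a chain of laminin 332, from 111 to 67.9 CPM (log2 ratio -0.70 ± 0.12, adjusted p 8.8e-06). The hemidesmosome genes Itgb4 and Col17a1 were at 167 and 168 CPM and at 134 and 137 CPM (adjusted p 0.56 and 0.47). Among cells with under 300 CPM of Krt8 and Krt18 the list turned, with 5 genes higher and 1 lower, and Thbs1 and Lamb3 did not pass.

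Of 27 Wnt genes 6 were higher (22.2%, beside 25.2% of all genes tested) and 10 lower (37.0%, beside 24.6%), so that only single members are described. Beside Wnt10a, the ligand genes Wnt6 (4.47 to 8.54 CPM, adjusted p 0.0043) and Wnt4 (28.5 to 35.0 CPM, adjusted p 0.015) and the canonical Wnt targets Axin2 (5.40 to 8.94 CPM, log2 ratio 0.71 ± 0.22, adjusted p 7.7e-04) and Tcf7 (14.6 to 21.5 CPM, log2 ratio 0.51 ± 0.22, adjusted p 0.0017) rose. Wnt5a, a ligand of the non-canonical branch, fell from 55.5, 40.1, 34.8 and 30.7 to 36.0, 21.9, 19.9 and 18.5 CPM, lower in every library and in all 14 pools although the groups overlapped across libraries (log2 ratio -0.73 ± 0.10, adjusted p 1.3e-05). Wls, which carries Wnt proteins to the surface, fell in every library by nearly the same amount (log2 ratio -0.58 ± 0.06, adjusted p 6.2e-06), and the secreted inhibitors Sfrp1 (log2 ratio -0.65 ± 0.48, adjusted p 0.0030) and Dkk3 (log2 ratio -1.02 ± 0.32, adjusted p 9.9e-05) fell. Of 10 EGF ligands and ErbB receptors, Nrg1 rose (log2 ratio 0.40 ± 0.16, adjusted p 0.0011), while Egfr (log2 ratio -0.44 ± 0.11, adjusted p 7.7e-04) and its ligand Hbegf (adjusted p 0.020) fell. The calls of Wnt4, Dkk3, Egfr and Hbegf were lost among cells with under 300 CPM of Krt8 and Krt18, those of Axin2, Wnt4 and Nrg1 at 5000 UMIs per cell, and those of Wnt4 and Hbegf also without WT HU or without pool 4 of Brca2mut/WT HU. Among cells with under 300 CPM of Krt8 and Krt18 4 of 20 Wnt genes were higher and 4 lower.

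Immediate early and dissociation genes, which cells can raise within minutes of handling, were lower in cycling cells in 20 of 22 tested (90.9%, median log2 fold change -0.55). Ier3 had 403, 407, 519 and 363 CPM in non-cycling and 247, 215, 311 and 192 CPM in cycling cells, without overlap (log2 ratio -0.82 ± 0.11, adjusted p 7.0e-07). The transcription factor genes Junb, Egr1 and Fos fell (log2 fold changes -0.61, -0.60 and -0.69, adjusted p 7.4e-05, 6.0e-04 and 8.0e-04). The 1 gene of the list that rose was Hsp90aa1, a chaperone gene (log2 ratio 0.91 ± 0.23, adjusted p 7.8e-06). Among cells with under 300 CPM of Krt8 and Krt18, 10 of 20 genes were lower, and without the library as a block 13 of 22 were, Fos not among them.

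Interferon-stimulated genes, which defend against viruses, fell in 17 of 28 tested, and none was higher, with a small median (-0.26). Ifit1 fell from 67.0, 82.5, 83.9 and 85.4 to 50.9, 35.1, 63.5 and 43.7 CPM (log2 ratio -0.74 ± 0.41, adjusted p 6.2e-04), and the interferon regulator Irf7 from 165 to 126 CPM (log2 ratio -0.36 ± 0.37, adjusted p 0.021). Bst2 and Isg15 did not pass (adjusted p 0.051 and 0.23). Luminal cells had more of Ifit1 and Irf7, with Ifit1 at 130.5 CPM in cycling and 223 CPM in non-cycling luminal cells. Without the Brca2mut/WT HU library 8 interferon genes were lower and 1 was higher, and among cells with under 300 CPM of Krt8 and Krt18 only 1 was lower. The call of Irf7 was also lost without WT HU or without Brca2mut/WT HU.

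Of 21 genes of hypoxia and glycolysis 13 were lower (61.9%), among them the glycolytic genes Hk2 and Pfkp, and 3 were higher (14.3%). Vegfa, the vascular growth factor, fell from 133, 88.1, 170.1 and 123 to 53.6, 32.3, 61.8 and 36.0 CPM, without overlap (log2 ratio -1.47 ± 0.19, adjusted p 9.3e-08) and in all 14 pools. Adm, adrenomedullin, fell from 38.5 to 10.3 CPM (log2 ratio -1.78 ± 0.35, adjusted p 1.0e-06), and Bnip3 from 113 to 66.2 CPM (log2 ratio -0.71 ± 0.06, adjusted p 2.4e-06). The glycolytic genes Ldha (log2 ratio 0.28 ± 0.15, adjusted p 0.0028) and Pkm (log2 ratio 0.21 ± 0.13, adjusted p 0.0080) rose a little, and Gapdh and Pgk1 did not pass (adjusted p 0.50 and 0.058). Among cells with under 300 CPM of Krt8 and Krt18 8 genes of the list were lower and none was higher, so that the calls of Ldha and Pkm were lost, and that of Pkm was also lost without the Brca2mut/WT control and without the block.

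Among 19 chemokines and cytokines 4 were higher and 9 lower. Beside Il24, the epithelial cytokine gene Tslp was higher in cycling cells, at 0.691, 0.733, 1.55 and 2.79 CPM in non-cycling and 0.189, 13.5, 7.99 and 26.7 CPM in cycling cells (log2 fold change 2.99, adjusted p 5.5e-04). It was lower in the WT control and higher in only 5 of 14 pools, and 8 of 701 cycling cells had a UMI of it at equal depth, so that few cells carry the value. Without the library as a block 2 of 17 genes of the list were lower.

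Markers of luminal cells that passed were more often lower than higher in cycling basal cells. Of 17 HR- luminal markers 7 were lower, 1 was higher and 9 did not pass (median log2 fold change -0.19), whereas among cells with at most 6000 genes 14 were lower and none was higher (median -1.24). Further, of 11 markers of hormone receptor positive (HR+) luminal cells 8 were lower and 1 higher. Lcn2, lipocalin 2, fell from 6085, 6157, 7085 and 6196 to 5564, 4079.9, 4812 and 4010.4 CPM (log2 ratio -0.48 ± 0.23, adjusted p 2.8e-04), beside 22413 CPM in cycling and 33440.5 CPM in non-cycling luminal cells. Krt19 fell from 296 to 105 CPM (log2 ratio -1.56 ± 0.32, adjusted p 1.3e-06), and among cells with under 300 CPM of Krt8 and Krt18 its log2 fold change was 0.31 (adjusted p 0.37). Csn3, kappa casein, was at 2065 and 1814 CPM (adjusted p 0.10). Ly6a (Sca1) fell from 913 to 734 CPM (log2 ratio -0.31 ± 0.11, adjusted p 0.0015) and was at 39.6 CPM in cycling luminal cells, so that most of the HR+ list's UMIs in basal cells were of a gene that basal cells carried more of. Esr1, the oestrogen receptor gene, fell from 5.40 to 2.36 CPM (adjusted p 3.7e-04). Of 5 stromal markers tested 4 were lower and Fbln1 was higher (18.3 to 27.9 CPM, adjusted p 3.8e-04), but none was lower among cells with at most 6000 genes, at 5000 UMIs per cell or with under 300 CPM of Krt8 and Krt18, where 4, 2 and 2 were tested. Of the HR+ markers 5 were lower among cells with at most 6000 genes, where the call of Ly6a was lost, and 2 of 5 with under 300 CPM of Krt8 and Krt18. The call of Lcn2 was also lost in the latter cells.

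The same 4 genes divided luminal cells (Krt14 under 200 CPM, Krt8 and Krt18 at least 500 CPM) into 2410 cycling and 13178 non-cycling cells, so that the effect of cycling could be compared between lineages. In an interaction test over 16 sums (edgeR's quasi-likelihood test, Benjamini-Hochberg adjusted) 819 of 14534 genes (5.64%) had a more positive effect in basal and 297 (2.04%) in luminal cells. The split depended on scaling, since 46.6% of called genes were higher with relative log expression factors and 13.6% with library totals, against 73.4% here. The counts were 187 to 369 and 84 to 177 without 1 library, and 175 and 86 at 5000 UMIs per cell. The median interaction over all genes was 0.08 on the log2 scale here and -0.13 with library totals.

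The interactions of Top2a and Birc5, which divided both lineages, were -0.19 and 0.04. Ptn rose in cycling basal cells, and luminal cells had 8.21 CPM when not cycling and 5.55 CPM when cycling (interaction 1.87, adjusted p 0.0088, positive in 4 of 4 libraries). Spon2, a secreted matrix protein, went from 47.0 to 55.7 CPM in basal and from 3.06 to 1.16 CPM in luminal cells (1.88, adjusted p 0.0018). Spag5, a spindle protein, rose in both, from 2.13 to 18.5 CPM in basal and from 14.3 to 35.4 CPM in luminal cells (2.00, adjusted p 1.6e-06). Saa2 (2.96 to 12.5 CPM in basal, 2.55, adjusted p 0.0098) and Smr2 (1.87 to 3.83 CPM in basal, 2.31, adjusted p 0.0076) stayed above the basal level in luminal cells, at 48.3 and 12.9 CPM when cycling. Across pools of basal cells, however, Saa2 was higher in cycling cells of 7 of 14 and lower in 7, and Smr2 higher in 7 and lower in 6, and among cells with at most 6000 genes the Saa2 interaction was -0.32 (adjusted p 0.91). Spon2 was higher in 9 of 14 pools.

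Cenpm, a subunit of the constitutive centromere complex, differed most in the negative direction. It was already at 72.0, 26.6, 52.1 and 53.9 CPM in non-cycling basal cells and reached 128, 107, 176 and 102 CPM in cycling ones, whereas luminal cells went from 4.12 to 108 CPM (-3.20, adjusted p 1.3e-04). E2f8, a repressor of the E2F family (4.40 to 29.3 CPM in basal and 0.493 to 19.9 CPM in luminal cells, -2.42, adjusted p 1.8e-04), and Dlgap5, a spindle protein (3.75 to 42.4 and 0.910 to 47.8 CPM, -1.95, adjusted p 2.4e-04), had the same pattern of a higher level in non-cycling basal than luminal cells. The keratinising genes Krt6b (-2.41) and Sprr1b (-2.38) were under 1 CPM in luminal cells, so that their interactions restate the fall in basal cells and are given without a test. The calls of Saa2, Smr2 and Ptn were lost without 1 or more of the libraries, that of Ptn without either control library (1.61 without the WT control and 1.83 without the Brca2mut/WT control), whereas those of Spag5, Spon2, Cenpm, E2f8 and Dlgap5 were kept in all 17 alternatives run.

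**Figure D5:**
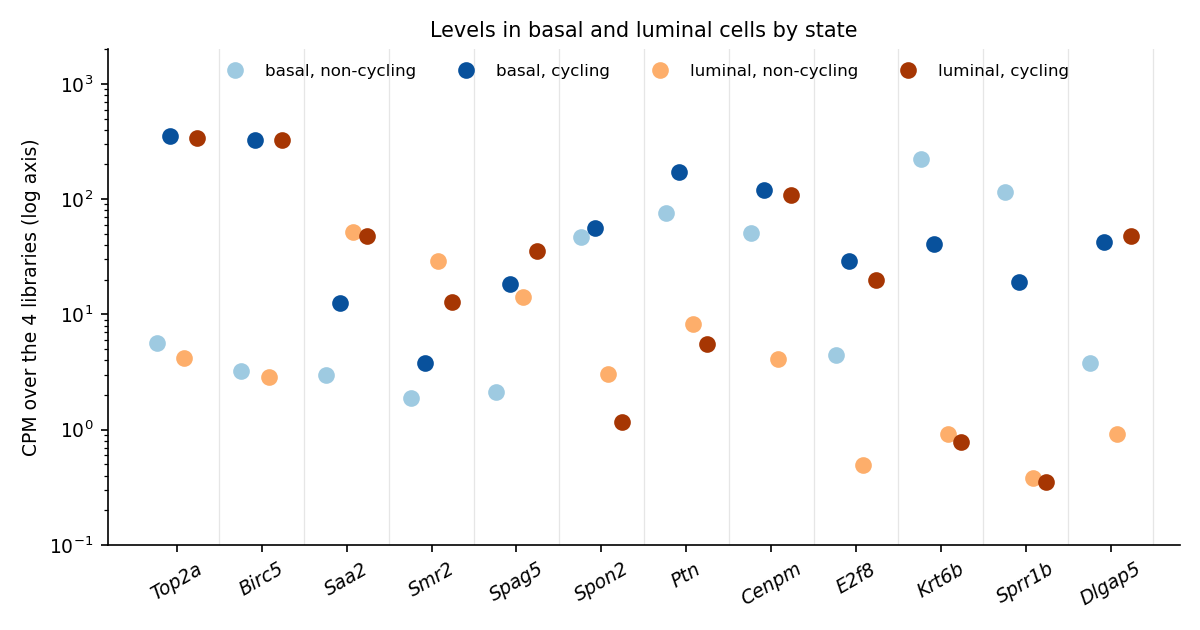
Level (CPM over the 4 libraries, log axis) of 12 genes in non-cycling and cycling basal (blue) and luminal (orange) cells. Top2a and Birc5, which chose the cells, are near the same levels in both lineages, Ptn is at 172 CPM in cycling basal and 5.55 CPM in cycling luminal cells, and Cenpm starts at 50.5 CPM in non-cycling basal against 4.12 CPM in non-cycling luminal cells.

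Cycling basal cells of the 4 conditions were compared by size alone, a gene being named past the fold at a ratio of at least 2 (with 1 CPM added), separate 95% exact Poisson intervals and at least 50 CPM in 1 of the libraries. Few genes met this. With HU in WT organoids 12 of 3064 genes were higher (0.392%) and 17 lower (0.555%), and in Brca2mut/WT organoids 7 of 3083 were higher (0.227%) and 13 lower (0.422%). In Brca2mut/WT against WT, 11 of 3056 were higher (0.360%) and 10 lower (0.327%) in control libraries, and 20 of 3075 higher (0.650%) and 22 lower (0.715%) after HU. The HU comparisons share no library with each other but share each of their libraries with the genotype comparisons, and bulk sums of a cell group cannot separate fewer cells with a transcript from less transcript per cell.

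With HU, 3 genes were lower in both genotypes and 0 were higher in both. Pglyrp1, a bactericidal peptidoglycan recognition protein, had 634 CPM (interval 619 to 649) in the WT control and 253 (245 to 260.4) in WT HU, and 686 (662 to 710.3) and 313 (301 to 326) in the Brca2mut/WT libraries. Ndufa4l2, a mitochondrial protein induced by hypoxia, had 683 and 295 CPM, and 484 and 147 CPM. Tesc, tescalcin, had 79.4 and 13.6 CPM, and 62.9 and 29.0 CPM. Pools within a library spread more widely than these libraries differ, since Pglyrp1 ran from 467 to 1797 CPM over the pools of the WT control and from 148 to 1060 CPM over those of WT HU. Tesc in the WT control was 339 CPM in the 14 cells of pool 2 and 60.8 CPM in pool 4. Each of the 3 lost its place past the fold in at least 1 genotype among cells with at most 6000 genes or without 1 pool. Luminal cells had 4177 CPM of Pglyrp1 and 638 CPM of Tesc when cycling.

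By genotype, Col4a1, a chain of basement membrane collagen, was higher in Brca2mut/WT under both treatments (23.4 to 61.6 CPM in control and 39.1 to 103 CPM in HU libraries), as was the tubulin gene Tuba1a (55.7 to 116 and 52.3 to 128 CPM). Slpi, a secreted protease inhibitor, was lower (555 to 261 and 794 to 392 CPM), as was the lipocalin gene Apod (55.0 to 23.3 and 119 to 20.1 CPM). Of the given markers, Il24 was past the fold in the Brca2mut/WT against the WT control (log2 ratio 1.75) and not after HU (0.76), and Krt5, Wnt10a and Ptn were past it in none of the 4 comparisons. Among cells with at most 6000 genes Tuba1a, Slpi and Apod were no longer past the fold under either treatment, and Slpi turned direction after HU (log2 ratio 0.78). Without pool 4 of the WT control Tuba1a was not past it in control libraries, and without pool 4 of Brca2mut/WT HU Col4a1 was not past it after HU.

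Tagln, Acta2, Fn1 and Ankrd1, named after their values were seen, were highest in the cycling basal cells of Brca2mut/WT HU, whose non-cycling cells also had the highest contractile sum (4486 CPM). Tagln had 598 CPM there (interval 581 to 616) and at most 85.8 CPM in the other libraries, and Acta2 877 CPM against at most 309.6 CPM. Fn1, fibronectin, had 16.7, 20.7, 48.2 and 205 CPM, and Ankrd1, a stress-induced ankyrin repeat protein of muscle, 4.92, 1.21, 12.3 and 53.8 CPM. Pool 4 of Brca2mut/WT HU had 1111 CPM of Tagln and 1436 CPM of Acta2 in 56 cycling cells. Tagln had 177, 257 and 75 CPM in pools 1 to 3. Without pool 4 the log2 ratio of Tagln to WT HU was 1.02 in place of 2.95, and Acta2 was no longer past the fold (0.34). Fn1 was alike in pools 1, 3 and 4 (211, 243 and 215 CPM) and 17.6 CPM in pool 2, and Ankrd1 was 126, 54.9, 59.2 and 3.92 CPM in pools 1 to 4. Among cells with at most 6000 genes neither was past the fold. In the WT control, pools 1 to 4 had 254, 317, 70.3 and 55.6 CPM of Tagln and 515, 332, 431 and 159 CPM of Acta2. Its pool 2, of 14 cycling cells, had 59.1 CPM of Ankrd1.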

How the data were processed

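Single-cell libraries were prepared with the 10x Chromium 3' kit (v3), and the authors deposited 1 matrix of UMI counts per library with 4 antibody tags as further features. The submitters' processing notes name Cell Ranger 6.0.2, R 4.1.3, Seurat 4.0 and mm10, whereas the matrix headers name Cell Ranger 6.1.1. Tags were left out of all totals. The limits on genes, mitochondrial share, tags and marker levels given in the opening chose the cells. No doublet caller was run, so that the tag ratio was the only guard against cells captured together from different pools.

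UMI counts were summed by library and state (8 sums, and 16 with luminal cells) and tested with edgeR 4.0.16 in R 4.3.3 (trimmed mean scaling, filterByExpr, glmQLFit and glmQLFTest, library as block, Benjamini-Hochberg adjustment). The p-values of the comparison of states measure the spread between 4 libraries of different genotype and treatment. Those of the interaction rest on an additive library effect. Lineage differences between libraries, and the pairing of states within a library and lineage, were not modelled there. Each library was 1 sample, so that conditions had no test, and all intervals cover counting error only. Depth was 4628123 to 16564226 UMIs per library in cycling basal cells. Pools with under 10 cells in either state were not compared, and cells were thinned to 5000 UMIs where shares or sums per cell were compared.

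Genes named were the chosen and given markers, the 10 largest rises and falls with the same sign in every library and at least 20 CPM in 1 state outside the cell cycle lists, and the 5 largest interactions in each direction. To these came members of each list (those of highest CPM among those that passed and did not, and those with a stated role) and genes past the fold with HU in both genotypes. Genes compared between genotypes, and Fn1, Ankrd1, Tagln and Acta2 by condition, were named after their values were seen. The members and lists were chosen with earlier results of these data known, and no such pattern is independent support. On simulated counts, 83% of 1.5-fold and 100% of 2-fold changes were recovered in the comparison of states (13260 genes, 11 of 13060 unchanged genes called), and 17% and 84% in the interaction (14589 genes, 0 of 14389 called). These counts had the same fixed dispersion for every gene, and only 100 genes of ample basal counts were changed by each fold. The data differ, with 3317 genes called higher and 3236 lower, so that these rates are not error rates of the real tests. Alternatives covered scaling, filters, cell limits, thinning, the block, DESeq2 1.42.0, each library and the largest pools left out. Python 3.11.15 with numpy 2.4.6, pandas 2.3.3, scipy 1.17.1 and matplotlib 3.10.9 was used. Gene names came from the matrices, gene positions from the GENCODE mouse annotation and promoter windows from RefSeq (GRCm38.p6).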

Additional observations from a re-analysis of the deposited data

Results flagged for a closer look

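Il33 stood apart in 1 library. Its log2 ratio of cycling to non-cycling basal cells was -2.81 in Brca2mut/WT HU, farther from the other 3 libraries than Dixon's 95% limit for 4 samples allows. It was the 1 such case among 41 genes looked at, and chance gives about 1 in 20.

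The cycling effect in basal against luminal cells was flagged for 10 named genes from an interaction test (edgeR, Benjamini-Hochberg adjusted). For Krt6b and Sprr1b among them the value is given without a test. The calls of Saa2, Smr2 and Ptn were lost without 1 or more of the libraries. The interaction was positive, on the log2 scale, for Saa2 (2.55), Smr2 (2.31), Spag5 (2.00), Spon2 (1.88) and Ptn (1.87). It was negative for Cenpm (-3.20), E2f8 (-2.42), Krt6b (-2.41), Sprr1b (-2.38) and Dlgap5 (-1.95). With at most 6000 genes per cell the Saa2 value was -0.32 (adjusted p 0.91), and Saa2 and Smr2 were each higher in cycling basal cells of 7 of 14 pools. Krt6b and Sprr1b were under 1 CPM in luminal cells, so that their values restate the fall in basal cells and are no test of a difference between the lineages.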

How the results depend on the processing

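The count of genes higher in cycling cells (3317) was 1872 at 5000 UMIs per cell and 1504 with Krt8 and Krt18 under 300 CPM, and the count lower (3236) was 2043 among cells with at most 6000 genes, 1645 at 5000 UMIs and 1342 with Krt8 and Krt18 under 300 CPM. Leaving out a library gave 2626 to 3202 higher and 2402 to 2885 lower, and DESeq2 gave 2689 and 2326. The interaction count higher in basal cells (819) was 315 with relative log expression factors, 193 with library totals, 348 with at most 6000 genes, 175 at 5000 UMIs, 512 without pool 4 of the WT control and 187 to 369 without a library. The count lower (297) was 1221 with library totals, 161 with at most 6000 genes, 86 at 5000 UMIs and 84 to 177 without a library. The interaction with Krt8 and Krt18 limited was not run.

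Cycling shares in the order of the libraries were 11.8%, 18.6%, 10.5% and 10.5% with at most 6000 genes, and 27.6%, 36.5%, 26.4% and 31.3% when any UMI of the 4 genes at 5000 UMIs counted. WT HU was 24.7% with Krt8 and Krt18 under 300 CPM and 23.9% without pool 2, the WT control 11% and Brca2mut/WT HU 18.0% without pool 4.

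Counts past the fold changed with a ratio of 1.5 to 20 higher and 80 lower for HU in WT, 24 and 43 for HU in Brca2mut/WT, 36 and 57 for Brca2mut/WT in controls, and 72 and 55 after HU. With at most 6000 genes they were 27 lower for HU in WT, 30 and 47 for HU in Brca2mut/WT, and 33 and 26 for genotype in controls. At 5000 UMIs they were 28 lower for HU in WT, 20 higher for HU in Brca2mut/WT, and 19 and 35 for genotype in controls. Without pool 4 of the WT control, 76 were lower for HU in WT and 32 for genotype in controls, and without pool 4 of Brca2mut/WT HU 38 were higher for genotype after HU.

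Direction turned for Trp63 (0.054) and Krt19 (0.31) with Krt8 and Krt18 under 300 CPM. With at most 6000 genes it turned for the interaction of Saa2 (-0.32), for Apod with HU in WT (-0.62) and for Slpi by genotype after HU (0.78). The cause was not tested. Without the library as a block 2822 genes were higher and 2310 lower.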
